A study of Mus musculus with 6 samples.

Results

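This report describes 35 genes of the NF-kB pathway in RNA-seq libraries of MuSCs, the PAX7-positive stem cells of skeletal muscle, from mice with and without Cre-driven deletion of *Sirt6* in the Pax7 lineage. The members were found in the table by symbol, from a list of known pathway and target genes. The list was chosen with earlier results of these data known. Of the 25166 genes of the table, 33 carried a symbol from the list, and the remaining members, *Traf1* and *Ptgs2*, were not analysed here. A further 4 members, *Il6*, *Ccl2*, *Ccl7* and *Icam1*, had a mean below 5 over the 6 libraries and are given by value without a test. This left 29 tested members.

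MuSCs were sorted by FACS from C57BL/6 mice, given as 12-week-old males by the study, and RNA of 100 to 200 cells was sequenced per library. The 3 libraries labelled Sirt6mKO came from mice with floxed *Sirt6* and Cre recombinase expressed from the *Pax7* gene, so that the model targets the whole Pax7 lineage, not MuSCs alone. The 3 control libraries are labelled wild type, whereas the supplement of the study describes controls as Cre-negative mice with the same floxed allele. No treatment was applied to either group. The study bred its Sirt6mKO mice with a YFP reporter allele, and it describes sorting by surface markers or by a fluorescent reporter. Its methods do not state which gate served each group here, so a difference in gate cannot be told apart from the genotype. The labels do not tie libraries to animals, so the p-values measure the spread between these samples. Values are given as signal, meaning reads on a gene after division by 1 size factor per library and rounding. The 6 libraries hold 1267947 to 3211528 reads on genes, and 1 read equals a signal of 0.729 to 1.792. Control replicates 1 and 3 (1898316 and 1267947 reads) were shallower than every Sirt6mKO library (2472653 to 3178134), and control replicate 2 was the deepest. Low genes are thus detected less well in those controls.

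NF-kB is a family of dimeric transcription factors formed by RELA, RELB, c-REL and the products of *Nfkb1* and *Nfkb2*. In resting cells, IkB proteins keep the dimers in the cytoplasm. Receptors of the TNF, IL-1 and Toll-like families activate the IKK complex through adaptor proteins, IkB is phosphorylated and degraded, and the dimers enter the nucleus and bind kappa-B sites in promoters and enhancers. Among the targets are chemokines and cytokines as well as *Nfkbia* and *Tnfaip3*, which shut the pathway off again. SIRT6, a NAD+-dependent deacetylase, is known from other cell types to bind RELA and to deacetylate histone H3 at promoters of NF-kB target genes. In skeletal muscle, NF-kB is best known for its role in atrophy and inflammation.

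The kappa-B consensus, searched by name on both strands in the RefSeq promoter windows of GRCm38.p6 (250 bases before to 50 after the start site), was present in 17 of the 28 members with a window, or 60.7%. It was present in 9.55% of all 27025 genes with a window and in 12% of the 9747 tested genes with one. The members were chosen as known pathway and target genes, so a high share describes the list. By role, a match was found for 6 of 6 secreted targets, 3 of 4 IkB proteins, 2 of 3 NF-kB subunits, 3 of 5 other targets, 3 of 8 receptors, adaptors and feedback genes and 0 of 2 IKK genes. A match is a description of the letters and does not show that the site is bound.

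**Figure D1:**
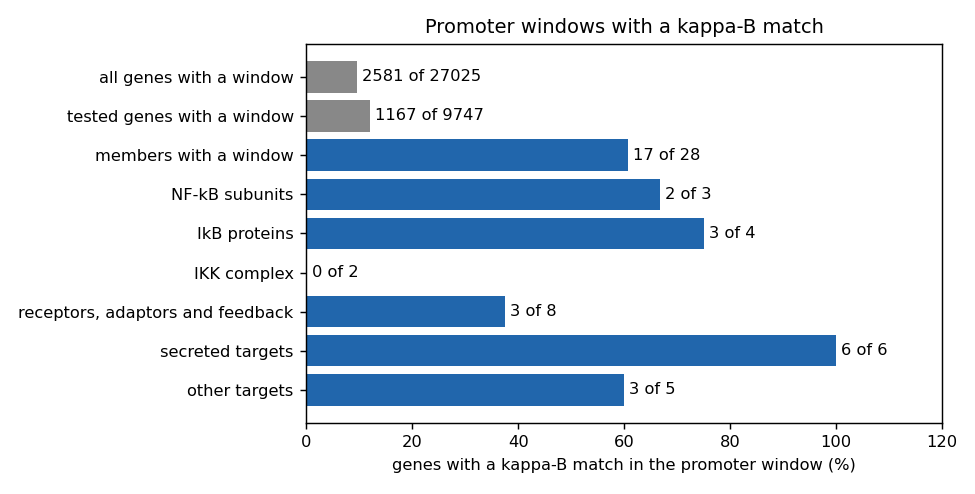
Share of genes (%) whose RefSeq promoter window holds at least 1 match to the kappa-B consensus, for all genes, tested genes, all members and the members by role, with the number of genes beside each bar. The secreted targets have a match in 6 of 6 windows and all genes in 2581 of 27025.

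The 250 bases before the start site are shown for 4 members, 5′ to 3′ on the strand of the gene, with the kappa-B matches in capitals. *Cxcl1* and *Csf1* are the members that differed between the groups, *Cxcl2* is the neighbouring chemokine gene, and *Nfkbia* is the classical feedback target of the pathway. The *Cxcl1* window lies at chr5:90890995-90891244 (plus strand), that of *Cxcl2* at chr5:90903649-90903898 (plus strand), that of *Csf1* at chr3:107760470-107760719 (minus strand) and that of *Nfkbia* at chr12:55492648-55492897 (minus strand).
Cxcl1: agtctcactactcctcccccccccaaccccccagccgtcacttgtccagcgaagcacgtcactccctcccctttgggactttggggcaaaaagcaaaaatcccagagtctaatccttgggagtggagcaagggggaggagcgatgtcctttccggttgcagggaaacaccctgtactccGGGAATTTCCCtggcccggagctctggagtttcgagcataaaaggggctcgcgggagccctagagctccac
Cxcl2: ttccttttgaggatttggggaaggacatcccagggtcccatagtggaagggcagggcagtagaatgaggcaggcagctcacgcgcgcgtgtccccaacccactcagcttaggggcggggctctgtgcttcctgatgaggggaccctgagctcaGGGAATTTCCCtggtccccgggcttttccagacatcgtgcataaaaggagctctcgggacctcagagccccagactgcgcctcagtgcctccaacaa
Csf1: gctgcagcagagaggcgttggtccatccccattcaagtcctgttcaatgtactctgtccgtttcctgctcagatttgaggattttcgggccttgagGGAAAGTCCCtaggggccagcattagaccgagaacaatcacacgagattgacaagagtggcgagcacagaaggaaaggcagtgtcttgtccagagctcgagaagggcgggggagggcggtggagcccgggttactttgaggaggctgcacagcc
Nfkbia: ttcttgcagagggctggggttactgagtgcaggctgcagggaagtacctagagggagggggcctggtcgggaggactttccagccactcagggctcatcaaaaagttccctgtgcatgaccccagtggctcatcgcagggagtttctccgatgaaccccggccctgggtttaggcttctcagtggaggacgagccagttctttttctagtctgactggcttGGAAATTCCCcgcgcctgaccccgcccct
*Cxcl1* and *Cxcl2* carried the same 11 letters, which hold 2 overlapping matches, starting 71 and 97 bases before the start site. The match of *Csf1* started 154 bases before the start site and that of *Nfkbia* 29 bases before it. With the same letters, *Cxcl1* had a signal of 59 to 188 and *Cxcl2* one of 1 to 15 in the 6 libraries.

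Of the 29 tested members, *Cxcl1* and *Csf1* were higher in Sirt6mKO MuSCs, and no member was lower (limma, Benjamini-Hochberg adjusted p up to 0.05, with 14227 genes tested). The called share of 6.90% higher stands beside 2.64% higher and 1.88% lower among all tested genes. Both members also passed the minimum log2 fold change of 1. Among all tested genes, 1.57% passed both thresholds upward and 1.02% downward. The groups did not overlap for 4 members that were higher (*Cxcl1*, *Csf1*, *Nfkbib* and *Nfkbiz*) and for 1 that was lower (*Traf3*), or 13.8% and 3.45% of the tested members. Among all tested genes, 11.1% were separate and higher and 10.1% separate and lower, so the count of separate members was close to the background. The median log2 fold change of the tested members was 0.03, beside 0.00 for all tested genes, with 17 members above 0 and 12 below. Of the 27 members without a call, 22 had a 95% interval that stayed within a 2-fold change in either direction, and the intervals of *Nfkbib*, *Lif*, *Cxcl2*, *Cxcl10* and *Tnfaip2* reached it.

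**Figure D2:**
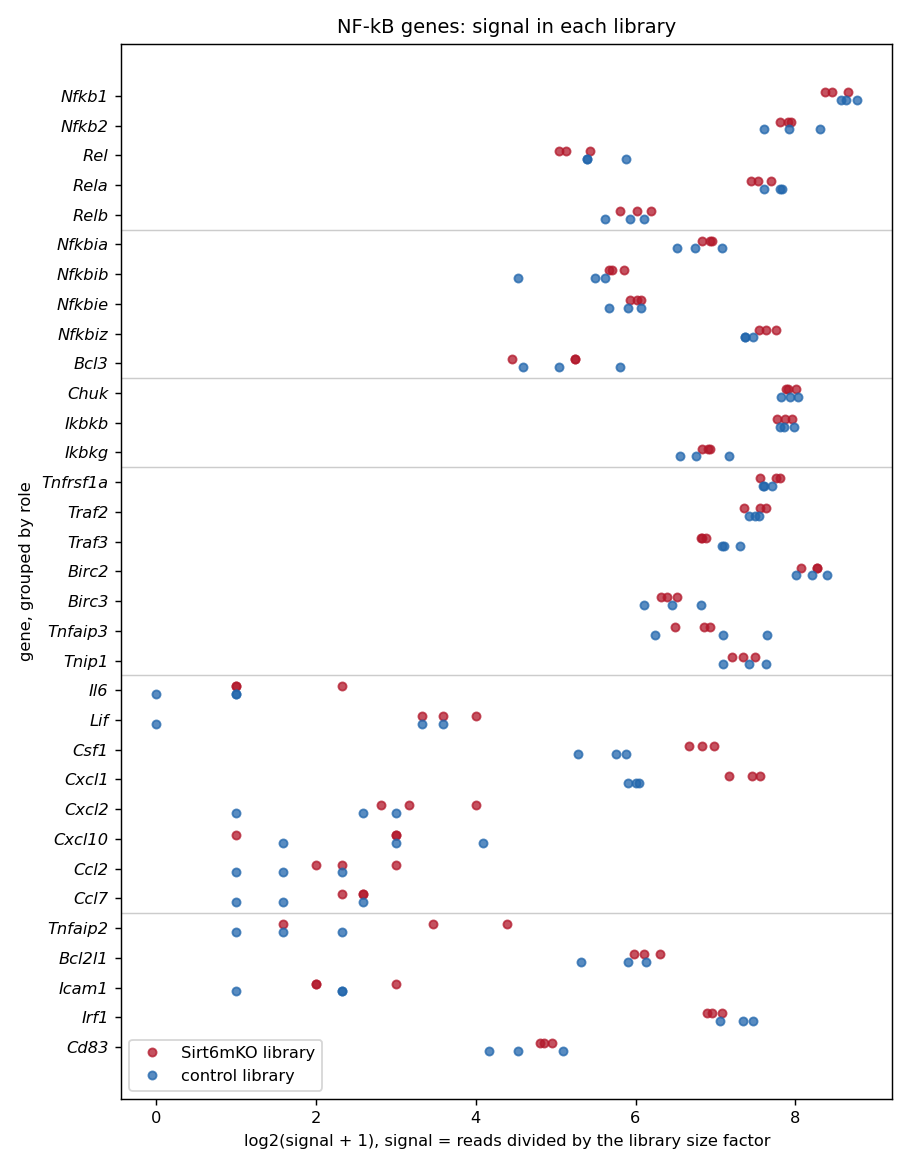
Signal of the 33 members in each library, as log2(signal + 1), with Sirt6mKO libraries in red and control libraries in blue and lines between the roles. The 3 Sirt6mKO libraries lie to the right of all control libraries for *Cxcl1* (143 to 188 against 59 to 65) and *Csf1* (101 to 126 against 38 to 58), and most secreted targets lie at the low end of the axis.

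*Cxcl1* encodes a chemokine that attracts neutrophils through CXCR2. In the order of replicates 1 to 3, which holds for all genes given here, Sirt6mKO MuSCs had a signal of 175, 188 and 143, and control MuSCs one of 65, 63 and 59. All Sirt6mKO libraries were above all control libraries, which lay close together. The log2 fold change was 1.41 ± 0.15 (SE, n = 3 per group), a 2.66-fold difference with a 95% interval of 2.12 to 3.35 (limma adjusted p = 0.00029). Behind the values stand 151 to 252 reads in the Sirt6mKO libraries and 33 to 86 in the control libraries. An exact permutation test of 3 against 3 libraries cannot go below p = 0.1, which was reached here. *Cxcl1* (ENSMUSG00000029380, chr5:90891241-90893115, plus strand) shares no exon bases with another gene.

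Per kb of exon, *Cxcl1* had a signal of 33.2 in control MuSCs, at the 75.1st percentile of the tested genes and close to the 33.6 of *Nfkb1*. The other CXC chemokine genes of its cluster on chromosome 5 were near the limit of detection, with a signal of 0 to 2 for *Cxcl3* and 0 to 2 for *Cxcl5* in the 6 libraries. *Cxcl2*, with the same kappa-B letters, had 15, 8 and 6 in Sirt6mKO and 7, 1 and 5 in control libraries. These groups overlapped, and the log2 fold change of *Cxcl2* was 1.13 ± 0.58 (SE), with a 95% interval of -0.12 to 2.38 and an adjusted p of 0.33 by limma. On leaving out 1 library it ranged from 0.53, without control replicate 2, to 1.53.

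*Csf1* encodes the growth factor of macrophages and their precursors. Sirt6mKO libraries had a signal of 126, 101 and 113, against 58, 53 and 38 for the controls, so that the lowest Sirt6mKO library lay well above the highest control. The log2 fold change was 1.19 ± 0.19 (SE, n = 3 per group), a 2.28-fold difference with a 95% interval of 1.71 to 3.04 (limma adjusted p = 0.0041). The lowest value of *Csf1*, in control replicate 3, rests on 21 reads. Its receptor gene *Csf1r*, a marker of macrophages, had a signal of 0 to 3 in all libraries. *Csf1* (ENSMUSG00000014599, chr3:107741048-107760469, minus strand) shares no exon bases with another gene either.

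The other secreted targets were low. *Lif*, a cytokine of the IL-6 family, had 11, 15 and 9 in Sirt6mKO and 11, 9 and 0 in control libraries, with a log2 fold change of 1.33 ± 0.77 (limma adjusted p = 0.40). Without control replicate 3, the shallowest library, in which 3 reads equal a signal of 5.38, it was 0.18, and without control replicate 1 it was 1.97. *Cxcl10*, an interferon-inducible chemokine, had 7, 7 and 1 against 16, 7 and 2. Its log2 fold change of -0.56 became 0.11 without Sirt6mKO replicate 3, 0.04 without control replicate 1 and -1.21 without control replicate 3. The monocyte chemokine genes *Ccl2* and *Ccl7* had 7, 3 and 4 against 2, 1 and 4 and 4, 5 and 5 against 5, 1 and 2. *Il6* had 1, 4 and 1 against 1, 1 and 0, in most libraries at or under the signal of 3 reads, so a difference was not detectable at this depth. *Cxcl2* and the target *Tnfaip2* reached the mean of 5 through the Sirt6mKO libraries, with control means of 4.33 and 2.33. Summed over the 8 secreted targets, the signal was 282 to 346 in Sirt6mKO and 110 to 165 in control libraries, and *Cxcl1* and *Csf1* made up most of it.

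The subunit genes were expressed in every library and did not pass the test. *Rela*, which encodes the p65 subunit that carries the transactivation domain, had 185, 207 and 174 in Sirt6mKO and 224, 228 and 195 in control libraries. These values overlap in 1 library of each group, and the log2 fold change was -0.19 ± 0.13 (SE), with an interval of -0.47 to 0.08 (limma adjusted p = 0.48). *Nfkb1*, the source of p105 and p50, had 352, 405 and 330 against 397, 438 and 380 (-0.16, interval -0.42 to 0.09). *Nfkb2*, the source of p100 and p52 and the central gene of the non-canonical branch, had 245, 239 and 224 against 242, 316 and 194. *Rel*, encoding c-REL, had 32, 42 and 34 against 41, 58 and 41, with a log2 fold change of -0.36 and an interval of -0.84 to 0.13. *Relb*, the partner of p52, had 55, 72 and 64 against 48, 60 and 68. The median log2 fold change of the 5 subunits was -0.16, with 4 below 0 and 1 above. Per kb of exon in control MuSCs, the order was *Rela* (70.2), *Nfkb2* (54.7), *Nfkb1* (33.6), *Relb* (15.1) and *Rel* (6.25). The signal of *Nfkb2* ranged from 194 to 316 in the control libraries.

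Among the IkB genes, 2 were separate between the groups without passing the test. *Nfkbiz*, encoding the nuclear IkB-zeta that acts as a co-activator for a set of secondary targets, had 186, 216 and 198 in Sirt6mKO and 165, 164 and 177 in control libraries. Its log2 fold change was 0.24 ± 0.12 (SE), with an interval of -0.02 to 0.51 (limma adjusted p = 0.33). *Nfkbib*, encoding IkB-beta, had 57, 50 and 51 against 48, 44 and 22, with a log2 fold change of 0.53 (limma adjusted p = 0.33). On leaving out 1 library it ranged from 0.19, without control replicate 3, to 0.74. Exons of *Nfkbib* overlap those of *Sirt2* and *Ccer2* on the other strand, and the sources used here do not state whether strand was used in counting. *Nfkbia*, encoding IkB-alpha, had 121, 123 and 113 against 91, 106 and 134, with the highest value in a control library. Its log2 fold change was 0.13 ± 0.16 (SE), with an interval of -0.22 to 0.47 (limma adjusted p = 0.75). The gene holds a kappa-B match and is among the members with the highest signal per kb (68.5). *Nfkbie* (IkB-epsilon) had 64, 66 and 60 against 66, 50 and 59, and *Bcl3*, the nuclear partner of p50 and p52 dimers, had 37, 37 and 21 against 55, 23 and 32. Exons of *Nfkb2*, *Bcl3*, *Ikbkg*, *Cxcl10*, *Tnfaip2*, *Icam1* and *Irf1* also overlap those of genes on the other strand.

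The 3 genes of the IKK complex differed least. The catalytic subunits *Chuk* (IKK-alpha) and *Ikbkb* (IKK-beta) had 256, 236 and 239 against 225, 244 and 262 and 248, 234 and 218 against 252, 232 and 224. The regulatory subunit *Ikbkg* (NEMO) had 119, 113 and 121 against 107, 143 and 93. The log2 fold changes were 0.00, -0.02 and 0.06, and the intervals of all 3 stayed within a 2-fold change.

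Of the 7 receptor, adaptor and feedback genes tested, *Traf3* was the only one with separate groups. *Traf3*, an adaptor that keeps the NF-kB-inducing kinase low and so restrains the non-canonical branch, had 117, 113 and 112 in Sirt6mKO and 137, 158 and 134 in control libraries. The log2 fold change was -0.32 ± 0.13 (SE), with an interval of -0.61 to -0.03, and the limma adjusted p was 0.22. *Traf2*, which works with *Traf3* and the cIAP ligases, had 187, 198 and 163 against 186, 179 and 170. The ligase genes *Birc2* (cIAP1) and *Birc3* (cIAP2) had 267, 309 and 309 against 296, 335 and 256 and 79, 83 and 91 against 87, 112 and 68. *Tnfrsf1a*, encoding TNF receptor 1, had 224, 216 and 187 against 209, 192 and 194 and the highest signal per kb of all members (76.5, at the 91.9th percentile of tested genes). The feedback gene *Tnfaip3*, encoding the ubiquitin-editing enzyme A20, had 89, 121 and 115 against 75, 199 and 136. The spread of *Tnfaip3* among the controls was larger than the difference between the groups. *Tnip1*, encoding an A20-binding inhibitor, had 162, 180 and 147 against 197, 170 and 136.

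The remaining targets showed no call. *Tnfaip2*, a TNF-inducible gene, had 20, 10 and 2 in Sirt6mKO and 4, 1 and 2 in control libraries, and the groups overlapped in Sirt6mKO replicate 3. Its log2 fold change was 1.51 ± 0.69 (SE), with an interval of 0.01 to 3.01 (limma adjusted p = 0.27), and it was 0.89 without Sirt6mKO replicate 1 and 2.29 without Sirt6mKO replicate 3. *Irf1*, a transcription factor shared with the interferon response, had 118, 123 and 135 against 132, 176 and 161 (-0.31, interval -0.62 to 0.01). *Bcl2l1*, which encodes the anti-apoptotic BCL-XL, had 62, 78 and 68 against 59, 69 and 39, and *Cd83*, a maturation marker of dendritic cells, had 30, 28 and 27 against 33, 17 and 22. The adhesion gene *Icam1* had 7, 3 and 3 against 4, 1 and 4.

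**Figure D3:**
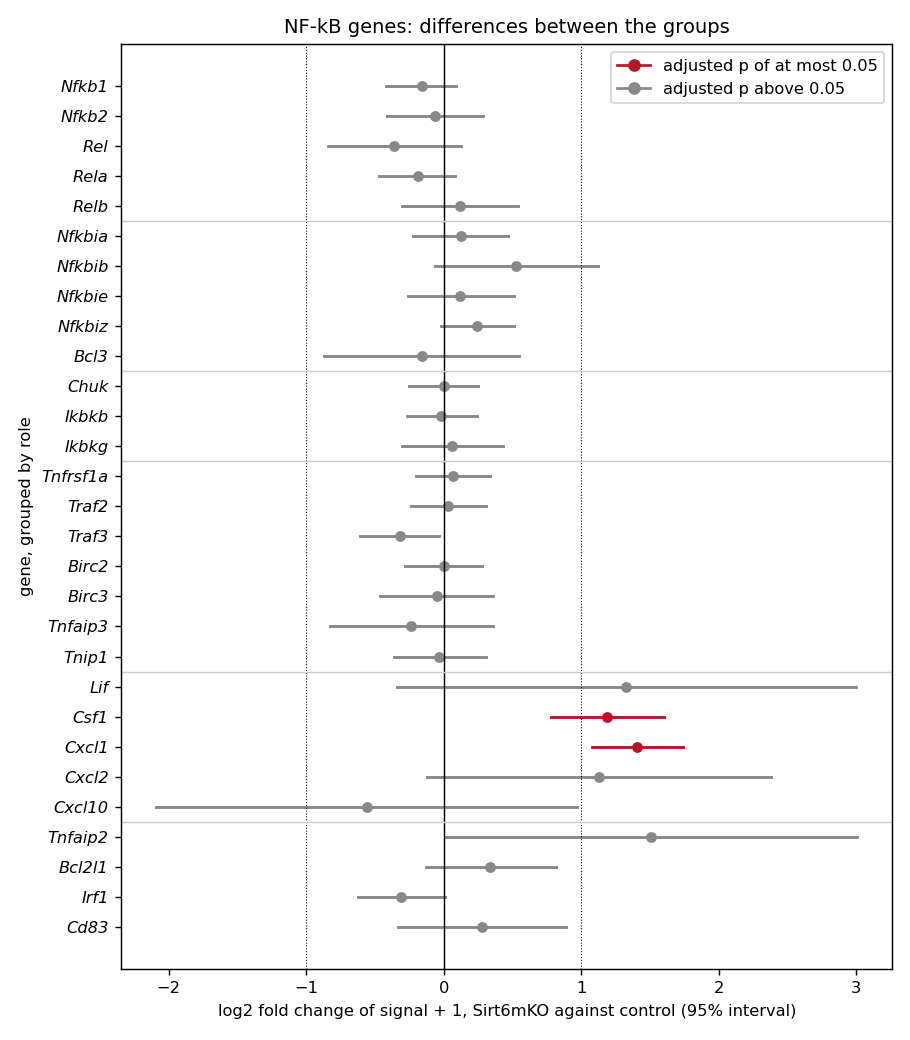
Log2 fold change of Sirt6mKO against control on the log2(signal + 1) scale for the 29 tested members, with 95% intervals from limma and dotted lines at -1 and 1. *Cxcl1* (1.41) and *Csf1* (1.19), in red, are the members past the adjusted p, and the subunit, IkB, IKK and adaptor genes lie around 0.

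A further 77 genes of the pathway, in 3 lists, gave 54 tested genes, of which 5 were higher and 0 lower (9.26%, beside 2.64% and 1.88% of all tested genes). Their median log2 fold change was 0.14. The 3 lists, like the members, were chosen with earlier results of these data known, so the shares describe the lists. Of 25 tested receptor and adaptor genes, *Ripk1* and *Map3k8* were higher. *Ripk1*, the kinase that links TNF receptor 1 to NF-kB and to cell death, had 403, 431 and 421 in Sirt6mKO and 258, 280 and 283 in control libraries, 1.53-fold higher (interval 1.30 to 1.79, limma adjusted p = 0.0066). *Map3k8*, the kinase that is held by p105 and feeds into ERK signaling, had 23, 36 and 39 against 12, 7 and 14 (2.83-fold, interval 1.71 to 4.69, limma adjusted p = 0.024). The groups did not overlap for either gene. The median of this list was 0.06. Its most abundant genes besides *Ripk1* were *Irak1* and *Map3k7*, which encode kinases of the IL-1 and Toll-like receptor pathway. Their log2 fold changes were 0.05 and 0.21 without a call, and the groups overlapped for *Irak1* and were separate for *Map3k7*.

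Of the 9 tested inhibitor and feedback genes beyond the members, none passed the adjusted p, 2 had an unadjusted p under 0.05 by limma, and the median was 0.19. The most abundant of them, *Tax1bp1*, *Itch* and *Cyld*, which take part in ubiquitin-dependent shut-off, had log2 fold changes of 0.19, 0.17 and 0.34. Of 20 tested target genes beyond the members, *Socs3*, *Tgm2* and *Ier3* were higher, and the median was 0.16. *Socs3*, the feedback inhibitor of STAT3 signaling, had 487, 446 and 481 against 262, 295 and 229, a 1.80-fold difference with an interval of 1.50 to 2.16 (limma adjusted p = 0.0019). *Tgm2*, encoding a transglutaminase, had 178, 155 and 187 against 96, 47 and 27 (3.43-fold, interval 2.09 to 5.62, limma adjusted p = 0.0088), and its controls differed widely among themselves. *Ier3*, a stress-inducible gene, had 47, 51 and 53 against 30, 19 and 25 (2.03-fold, limma adjusted p = 0.026). *Vcam1*, *Sdc4* and *Pnrc1*, the most abundant of this list, had log2 fold changes of 0.14, -0.30 and 0.01 without a call, and *Vcam1* and *Sdc4* are MuSC markers as well.

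*Ripk1* and *Socs3* kept their call in each of the 6 fits that left out 1 library. *Ier3* lost it without Sirt6mKO replicate 1, 2 or 3 or control replicate 2 (adjusted p of up to 0.12), *Map3k8* without Sirt6mKO replicate 2 or 3 or control replicate 2 (up to 0.13), and *Tgm2* without Sirt6mKO replicate 1 (0.069) and with robust empirical Bayes (0.071), all by limma.

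A list of immediate early genes, also chosen with earlier results of these data known, held further genes that differed between the groups. Of 19 tested immediate early genes, 8 were higher and 0 lower (42.1%, beside 2.64% and 1.88%), and their median log2 fold change was 0.63. *Fos* had 3442, 3757 and 4355 in Sirt6mKO and 1951, 2632 and 2302 in control libraries, a log2 fold change of 0.75 (limma adjusted p = 0.0081). *Jun* (0.80), *Junb* (0.85), *Egr1* (0.79), *Egr2* (1.05), *Ier2* (0.62), *Klf4* (0.87) and *Klf6* (0.45) were the others. The summed signal of the 20 immediate early genes was 17729 to 20445 in Sirt6mKO and 11074 to 13623 in control libraries, without overlap. Genes of this group respond within minutes to tissue dissociation as well as to signaling. The part of the immediate early response in the *Cxcl1* and *Csf1* values was not tested.

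**Figure D4:**
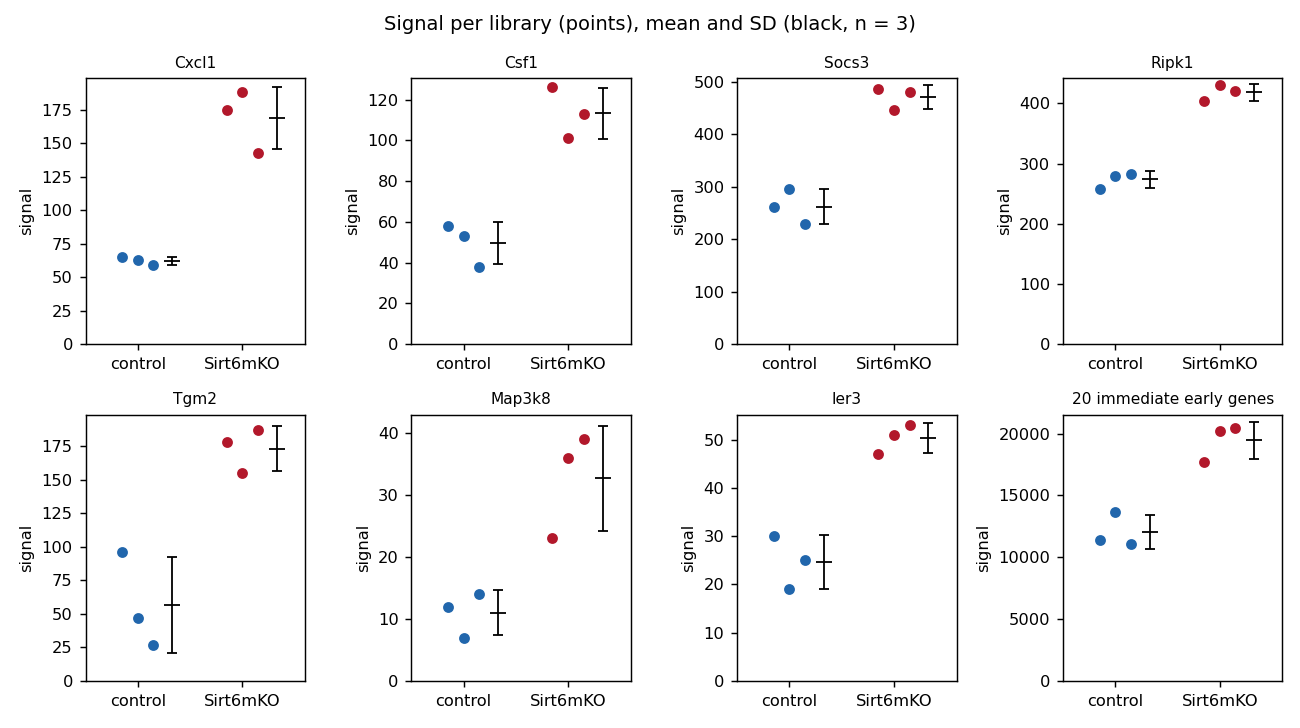
Signal per library (points) with the mean and SD (black, n = 3) for the 2 members past the adjusted p, the 5 further pathway genes past it, and the sum of 20 immediate early genes, on linear axes from 0. The red Sirt6mKO points lie above all blue control points in each panel, for example 403 to 431 against 258 to 283 for *Ripk1*.

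The libraries carried MuSC markers, and 12 of 12 in the list were tested, with *Pax7* lower (1841, 2307 and 1810 against 4066, 3449 and 3150, limma adjusted p = 0.0041) and *Cd34* higher (limma adjusted p = 0.031). Their summed signal was 16687 to 18109 in Sirt6mKO and 18547 to 20458 in control libraries, without overlap. *Pax7* made up most of the difference in this sum. The median log2 fold change of the 12 markers was -0.11, with 4 above 0 and 8 below. In bulk samples, fewer cells of a type and less RNA per cell cannot be told apart. Only the Sirt6mKO mice carried the Cre allele at *Pax7*, so any effect of it on *Pax7* cannot be told apart from the deletion. Of 9 fibroblast markers, 7 were tested, 2 were higher and 0 lower, beside 2.64% and 1.88% of all tested genes. Their median log2 fold change was 1.33, with 7 of 7 above 0 and 5 at an unadjusted p under 0.05 by limma. *Col1a2* had 782, 1299 and 1162 against 173, 63 and 65, and *Pdgfra* 14, 22 and 38 against 9, 4 and 2, whereas *Ly6a*, which encodes the fibroblast surface marker Sca1, was at 0 to 2. The summed fibroblast markers overlapped between the groups, with 9068 to 10978 in Sirt6mKO and 6535 to 9776 in control libraries, and *Col3a1* (log2 fold change 0.06) made up most of the sum. The sort described by the study depletes cells with Sca1, CD45 or CD31 on their surface, which include Sca1-positive fibroblasts. When the study analysed its sorted cells again, their purity was incomplete. The part of fibroblast RNA in the *Cxcl1* and *Csf1* values was not tested. Of 14 immune markers, 7 had no row, among them *Ptprc*, *Adgre1* and *Itgam*, and 1 (*Cd68*, 0.21) was tested. Their sum was 46 to 88 in Sirt6mKO and 39 to 72 in control libraries. Of 9 endothelial markers, 3 were tested without a call, and the sum of the list was 383 to 459 in Sirt6mKO and 477 to 579 in control libraries. *Tek* made up most of it (log2 fold change -0.35), whereas *Pecam1* and *Esam* had 1.05 and 0.15.

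*Sirt6* itself had 19, 20 and 13 in libraries with the Sirt6mKO label, against 18, 17 and 20 in the controls (log2 fold change -0.10 ± 0.29, SE, limma adjusted p = 0.91). This value was planned as a check of the labels, and it showed no clear drop in Sirt6mKO. It is summed over all exons, including those outside the deleted part, and single exons were not tested. The labels and the deletion are therefore not checked by these values.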

How the data were processed

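RNA of FACS-sorted MuSCs was sequenced for 3 Sirt6mKO and 3 control samples, grouped by their labels. According to the labels, rRNA was depleted with RiboGone and libraries were made with a SMARTer stranded kit, whereas the methods of the study name RiboMinus and an Ion kit. The submitters' processing notes list Trimmomatic 0.39, STAR 2.7.10a, featureCounts 2.0.2 and DESeq2 1.30.1 with mm10. The deposited signal values are reads per gene that the authors divided by 1 size factor per library and rounded to whole numbers. The factors, 0.558 to 1.372, were recovered from the steps in the values, and the unit is not named in the table. The reads, and the floor of 3 reads (a signal of 2.19 to 5.38), follow from these factors and cover counting error only. No value column was left unused.

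Because the values are scaled and rounded, no count model was used. The log2(signal + 1) values were fitted with limma-trend (limma 3.58.1, R 4.3.3) on genes with a mean of at least 5, with Benjamini-Hochberg adjustment over all of them. Fold changes and their intervals are on this scale, which understates changes of low genes. The procedure was tested on simulated data. Per-kb values use the union of exons of GENCODE M21 (GRCm38), which held 99.7% of the gene identifiers, and understate genes with many annotated transcripts. Promoters are RefSeq windows of GRCm38.p6, and 28 of 35 members matched by symbol. No protein sequences were used. Tables and plots were made with Python 3.11.15, pandas 2.3.3, numpy 2.4.6, scipy 1.17.1 and matplotlib 3.10.9.

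The members and gene lists were chosen with earlier results of these data known. All members are named, and of the other lists, genes past the adjusted p and up to 3 of the most abundant. *Csf1r*, *Cxcl3*, *Cxcl5*, *Ly6a*, *Adgre1*, *Itgam* and *Ptprc* were named after their values were seen. The replicate numbers were checked for pairing. Alternatives were 3 other scalings, 2 other filters, pseudocounts of 0.1 and 5, robust empirical Bayes, voom on the recovered reads, the replicate number as a block and leaving out each library.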

Additional observations from a re-analysis of the deposited data

How the results depend on the processing

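*Cxcl1* and *Csf1* were called higher, and no member lower, under each of the 16 alternatives, with log2 fold changes of 1.33 to 1.53 and 1.01 to 1.31 (limma adjusted p of 0.00011 to 0.0073 and 0.0023 to 0.043). Of 464 values of single members under these alternatives, 437 kept their direction and their side of the threshold and 27 reversed, all of them of 13 members without a call. *Birc2* was -0.02 under upper quartile scaling, library size scaling and voom, *Chuk* -0.02 under the same 2 scalings and *Ikbkg* -0.003 under voom. The ranges of the 13 on leaving out 1 library were -0.44 to 0.17 for *Bcl3*, -0.10 to 0.10 for *Birc2*, -0.23 to 0.13 for *Birc3*, -0.05 to 0.06 for *Chuk*, -1.21 to 0.11 for *Cxcl10*, -0.06 to 0.03 for *Ikbkb*, -0.07 to 0.24 for *Ikbkg*, -0.23 to 0.12 for *Nfkb2*, -0.003 to 0.27 for *Nfkbia*, -0.01 to 0.23 for *Relb*, -0.61 to 0.09 for *Tnfaip3*, -0.17 to 0.09 for *Tnip1* and -0.03 to 0.11 for *Traf2*. That of *Sirt6* was -0.21 to 0.09. The median over the members ranged from 0.00 to 0.11, the highest without Sirt6mKO replicate 3. Members with separate groups numbered 4 to 8 higher and 1 to 4 lower on leaving out 1 library, since fewer libraries overlap less, and 2 were lower under upper quartile scaling. With alternatives added after seeing the data, leaving out 1 library gave 3 to 6 further pathway genes and 5 to 13 immediate early genes higher, and no filter on low values gave 5 immediate early genes. All called genes numbered 643, and 259 to 682 on leaving out 1 library.

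Same-numbered libraries deviated together with correlations of 0.023, 0.066 and 0.188, and differently numbered ones with -0.129 to 0.073. The same-numbered correlations were not all above 0.1, so the numbers were not taken as pairs. This does not show that pairing was absent. With the replicate block, 2 members were higher and 0 lower, the median was 0.03, and 814 genes were called in all. Low genes such as *Il6*, *Ccl2*, *Ccl7* and *Icam1* are limited by depth.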
